A study of Mus musculus with 12 samples.

Results

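The genes described here are 9 genes linked to water and ion homeostasis in astrocytes, chosen by symbol: Aqp4, Kcnj10, Kcnj16, Mlc1, Hepacam, Clcn2, Dag1, Dtna and Slc4a4. All 9 were found once each among the 55471 genes of the count table, and all 9 were among the 19578 genes expressed enough to be tested. RNA-seq was done on primary hippocampal neurons prepared from wild-type CD1 mouse embryos of mixed-sex litters at E17. Antisense LNA gapmers, which direct RNase H to a target RNA, were packaged into lipid nanoparticles and given at DIV 7 (days in vitro), and RNA was taken at DIV 10. One group received a control gapmer and the other a gapmer against the lncRNA *Neuid* (*Neuid* KD), with 6 libraries each. A single *Neuid* gapmer sequence stands for the knockdown, and nothing states whether the libraries of a group came from separate cultures. The study's legend on the knockdown in its RNA-seq samples gives a smaller n than the 6 libraries per group used here. The p-values therefore measure the spread between these libraries, which may be technical.

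Astrocytes send endfeet onto blood vessels, and the membrane of the endfoot that faces the vessel holds a dense array of the water channel aquaporin 4. The array is held in place by a dystrophin-associated complex that binds laminin and agrin outside the cell through dystroglycan. Inward rectifier potassium channels take up the potassium that active neurons release, and the MLC1 and GlialCAM proteins, with the chloride channel ClC-2, take part in the regulation of cell volume that goes with it. A sodium-bicarbonate cotransporter moves base across the same membrane. The libraries hold RNA only, so that "endfoot" refers to what is known of the genes, and the 6 listed endothelial markers summed to 6.62 to 21.0 CPM in control and 6.93 to 22.1 CPM in *Neuid* KD libraries. CPM values divide the reads of a gene by the library's total, adjusted with the TMM method of edgeR.

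The targeted RNA followed the labels. *Neuid* (Gm10419, ENSMUSG00000072769) lay at 26.0 to 31.0 CPM in control libraries (median 28.3) and, without overlap, at 6.32 to 9.55 CPM after *Neuid* KD (median 8.08). Its log2 fold change was -1.81 (SE 0.0845, edgeR adjusted p = 1.3e-10). It shares 139 exon bases with Gm42517 on the opposite strand, and how strand was treated in counting is not given in the sources used here, so reads of these bases cannot be told apart. Libraries held 11152556 to 30914714 reads. They differed in reads on chemosensory receptor genes, which are taken as background (26.0 to 653 CPM), with 4 control and 3 *Neuid* KD libraries at 100 CPM or above. Markers of the labelled cell type were present, and the 10 neuronal markers summed to 6169 to 7247 CPM in control and 6013 to 7212 CPM in *Neuid* KD libraries. Astrocyte markers were present too, at sums of 1679 to 2108 and 3010 to 3657 CPM. In bulk RNA such as this, more or fewer cells of a type and more or less RNA per cell cannot be told apart. Nor can the cells that a transcript came from.

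Of the 9 genes, 6 were higher in *Neuid* KD (edgeR adjusted p under 0.05 and a log2 fold change above 0.5), and in each of the 6 every *Neuid* KD library lay above every control library. Over all tested genes, 2.44% were called higher by this rule and 4.13% were higher with no overlap between the groups. The 6 were Aqp4, Slc4a4, Kcnj16, Hepacam, Mlc1 and Kcnj10. None of the 9 was called lower, and none had an unadjusted p under 0.05 in that direction in edgeR or a call in DESeq2. An unadjusted p under 0.05 was reached by 11.9% of all tested genes for a higher and 6.96% for a lower level. Of all tested genes edgeR called 0.792% lower, and 1.57% were lower with no overlap between the groups, as none of the 9 was. With no fold threshold, 7 were higher, the 6 and Dag1, and none was lower, beside 6.31% and 2.42% of all tested genes. Dtna and Clcn2 passed neither rule. The median log2 fold change was 1.22 over the 9 genes and -0.03 over all tested genes. Fitted apart, the 7 libraries with at least 100 CPM of background and the 5 others gave log2 fold changes of 2.13 and 2.04 for Aqp4, 1.56 and 1.502 for Slc4a4, 1.31 and 1.26 for Hepacam, 1.27 and 1.11 for Mlc1 and 1.12 and 0.88 for Kcnj10, and the same 6 genes were called in each.

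**Figure D1:**
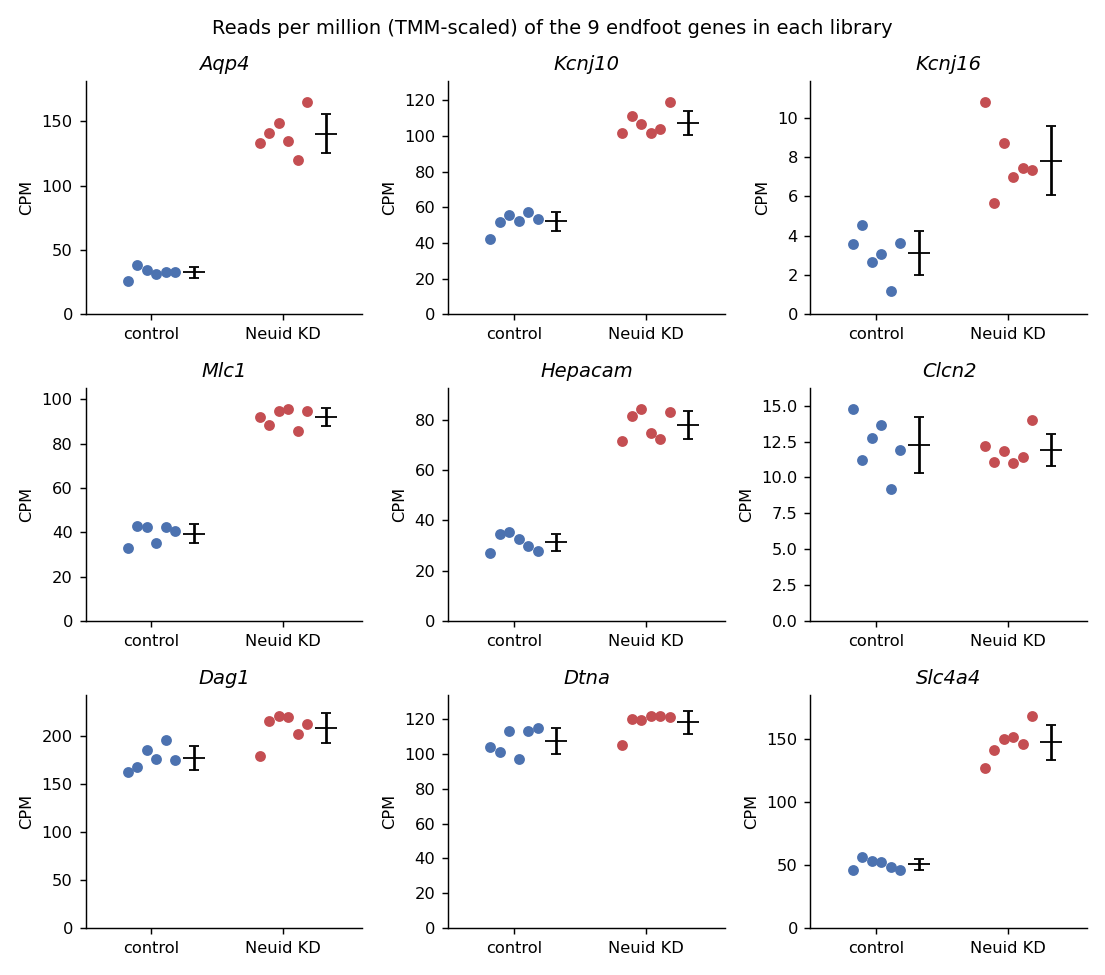
Each panel plots one gene, with CPM on the y axis from 0, 1 point per library (6 control in blue, 6 *Neuid* KD in red) and the mean with its SD beside the points. The 6 called genes show separate clouds of points, whereas the points of Clcn2 overlap, and *Neuid* KD replicate 1 lies below the other *Neuid* KD libraries for Dag1 and Dtna.

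Promoter sequence is shown for 4 members, the called genes Kcnj10, Slc4a4 and Kcnj16 (few reads) and Dag1, which stayed below the fold threshold. Each is the 250 bases before a RefSeq start in GRCm38.p6, 5′ to 3′ on the strand of the gene, and none of the 4 windows touches an annotated exon. RefSeq windows were examined for 7 of the 9 genes, 12 windows in all. Aqp4 and Dtna were left out of this part, so whether RefSeq holds windows for them is not reported here. Capitals mark the letters TTGGC, on either strand, which nuclear factor I (NFI) proteins recognise and which can overlap a CCAAT box. NFI factors are known for their part in astrocyte development. The windows were also searched for E-box, SOX, STAT, GC box, TATA box and CCAAT box letters, which are not marked. The windows are chr1:172340960-172341209 on the plus strand for Kcnj10, chr5:89027716-89027965 on the plus strand for Slc4a4, chr9:108263959-108264208 on the minus strand for Dag1 and chr11:110967783-110968032 on the plus strand for Kcnj16. The Slc4a4 window lies inside the gene, before an internal start, and the other 3 end just before the annotated gene begins.
Kcnj10: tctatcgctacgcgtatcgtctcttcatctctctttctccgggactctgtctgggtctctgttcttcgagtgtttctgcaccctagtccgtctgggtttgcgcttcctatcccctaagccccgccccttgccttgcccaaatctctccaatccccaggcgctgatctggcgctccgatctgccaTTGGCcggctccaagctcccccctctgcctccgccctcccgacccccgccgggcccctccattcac
Slc4a4: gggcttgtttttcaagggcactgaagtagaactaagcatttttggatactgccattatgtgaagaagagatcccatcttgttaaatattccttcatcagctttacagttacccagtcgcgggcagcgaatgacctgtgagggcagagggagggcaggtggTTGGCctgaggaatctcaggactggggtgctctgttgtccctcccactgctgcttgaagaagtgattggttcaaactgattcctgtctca
Dag1: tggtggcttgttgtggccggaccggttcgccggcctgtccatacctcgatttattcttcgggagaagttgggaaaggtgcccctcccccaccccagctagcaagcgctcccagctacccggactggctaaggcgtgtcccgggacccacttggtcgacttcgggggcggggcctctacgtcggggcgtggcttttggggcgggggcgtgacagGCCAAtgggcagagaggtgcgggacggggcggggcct
Kcnj16: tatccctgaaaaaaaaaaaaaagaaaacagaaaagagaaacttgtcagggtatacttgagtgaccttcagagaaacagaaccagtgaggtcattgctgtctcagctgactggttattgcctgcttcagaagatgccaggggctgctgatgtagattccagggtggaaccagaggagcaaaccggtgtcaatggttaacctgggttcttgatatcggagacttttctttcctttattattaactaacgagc
The letters occurred once each in the windows printed for Kcnj10, Slc4a4 and Dag1 and were absent from that printed for Kcnj16. Kcnj16 has 3 other windows, of which 2 hold the letters, so the printed window does not stand for the gene. Among the other windows not printed, the letters occurred 2 times each for Hepacam and the second Dag1 window, 1 time for Mlc1 and 0 times for Clcn2. The share of all 32851 RefSeq windows that hold them is 41.5%. In Kcnj10 and Dag1 the marked letters overlap a CCAAT box. The printed windows also differed in base composition, with a GC content of 62.0% for Kcnj10 with 17 CpG dinucleotides and 67.6% for Dag1 with 21, and of 48.8% for Slc4a4 and 42.8% for Kcnj16 with 3 CpG dinucleotides each. The other Slc4a4 window, at the start of the gene, lies in annotated exon and was not printed. It holds the letters 2 times and has a GC content of 82.0% with 44 CpG dinucleotides, so the lower value belongs to the internal start and not to the gene. A match of letters is not a binding site, and no measurement of binding was used here.

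Aqp4 (ENSMUSG00000024411, chromosome 18 of GRCm38, 15389496 to 15410982, minus strand) had the largest change of the 9 genes. It was at 25.5 CPM in the lowest, 32.8 in the median and 38.7 in the highest control library. In *Neuid* KD libraries the lowest value was 119.9, the median 138.0 and the highest 164.8 CPM. The mean rose from 32.6 ± 4.28 CPM to 140.4 ± 15.2 CPM (± SD over 6 libraries, as in all values of this form), with a log2 fold change of 2.10 (SE 0.0892, edgeR adjusted p = 4.5e-11). Among the 15205 tested genes that averaged 1 CPM or more, this was rank 10 by log2 fold change. Of the other 11 aquaporin genes listed, 4 were expressed enough to be tested, none was called in either direction by edgeR or DESeq2, and none had an unadjusted p under 0.05. The best expressed of them, Aqp11, an aquaporin of intracellular membranes, was at 19.7 ± 1.67 and 19.7 ± 2.17 CPM (log2 fold change 0.00). Aqp5 and Aqp9 had means of 0.924 to 1.28 CPM, and the SE of their log2 fold changes was 0.412 and 0.42.

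Kcnj10 encodes Kir4.1, the principal inward rectifier of astrocytes, and Kcnj16 encodes Kir5.1, which forms channels together with Kir4.1. Kcnj10 (chromosome 1, 172341210 to 172374085, plus strand) ranged over 42.4 to 57.5 CPM in control (median 52.8) and 101.5 to 118.8 CPM in *Neuid* KD libraries (median 105.2). Its log2 fold change was 1.04 (SE 0.0667, edgeR adjusted p = 7.0e-09). Control replicate 1 was the lowest library, and the *Neuid* KD libraries were spread by 6.26% around their mean (coefficient of variation).
Kcnj16 (chromosome 11, 110968033 to 111027968, plus strand) was the least expressed member, with 26 to 106 reads in control libraries and 128 to 200 in *Neuid* KD libraries. It ranged over 1.20 to 4.53 CPM in control (median 3.31) and 5.66 to 10.8 CPM in *Neuid* KD libraries (median 7.37). The log2 fold change was 1.32 (SE 0.225, edgeR adjusted p = 6.8e-04), with a spread of 36.3% in control libraries, the widest of the 9 genes. The lowest control values, 1.20 CPM in replicate 5 and 2.64 CPM in replicate 3, came from the control libraries under 100 CPM of chemosensory background. Its log2 fold change came to 1.19 in the 7 libraries at or above that level and to 1.80 in the other 5, and the part of the background in this difference was not tested.

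The other inward rectifiers had lower or similar levels in *Neuid* KD. Of the 13 listed, 11 were tested, none was called by edgeR or DESeq2, none had a log2 fold change above 0, and 4 had an unadjusted p under 0.05 for a lower level, beside 6.96% of all tested genes (median log2 fold change -0.32). Kcnj3, a G-protein-gated channel subunit of neurons, was at 99.1 ± 5.73 and 91.2 ± 6.37 CPM. Kcnj4, which encodes Kir2.3, was at 52.2 ± 4.10 and 41.8 ± 2.61 CPM (log2 fold change -0.32, edgeR adjusted p = 0.0017). Kcnj9, another G-protein-gated subunit, was at 18.8 ± 1.81 and 14.1 ± 1.64 CPM (-0.41, edgeR adjusted p = 0.0031), so that both passed on p alone and stayed within the fold threshold. Kcnj6 was at 25.6 ± 1.23 and 23.6 ± 2.69 CPM.
Among the tandem-pore potassium channels, which carry background potassium current, 10 of 14 were tested and 1 was called, lower in *Neuid* KD. This was Kcnk9 (TASK-3), which fell from 69.4 ± 9.36 to 35.3 ± 4.05 CPM (log2 fold change -0.97, edgeR adjusted p = 6.8e-07), with no overlap of the groups. Kcnk10 was at 118 ± 9.40 and 98.7 ± 8.37 CPM (-0.26, edgeR adjusted p = 0.0173). Kcnk1, a channel of neurons and astrocytes, was at 60.4 ± 2.17 and 59.8 ± 3.83 CPM. At an unadjusted p under 0.05 in edgeR none was higher and 3 were lower, DESeq2 also called 1 lower and none higher, and the median of the 10 was -0.17.

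Mlc1, the gene mutated in megalencephalic leukoencephalopathy with subcortical cysts, encodes a membrane protein of astrocyte junctions, Hepacam encodes its adhesion partner GlialCAM, and Clcn2 encodes the chloride channel that GlialCAM also binds. Mlc1 (chromosome 15, 88955884 to 88979007, minus strand) ranged over 33.1 to 42.9 CPM in control (median 41.4) and 85.8 to 95.5 CPM in *Neuid* KD libraries (median 93.4). Its log2 fold change was 1.22 (SE 0.0651, edgeR adjusted p = 6.3e-10). Hepacam (chromosome 9, 37367351 to 37386575, plus strand) ranged over 27.2 to 35.2 CPM (median 31.2) and 71.4 to 84.2 CPM (median 78.0), a log2 fold change of 1.31 (SE 0.0710, edgeR adjusted p = 6.7e-10). For both genes the gap between the groups was wider than the whole range within either group.
Clcn2 (chromosome 16, 20702964 to 20717746, minus strand) ranged over 9.21 to 14.8 CPM in control (median 12.3) and 11.0 to 14.0 CPM in *Neuid* KD libraries (median 11.6). No *Neuid* KD library was above the highest control library. The log2 fold change was -0.04 (SE 0.0979, edgeR adjusted p = 0.885), and the 95% interval of the difference, from inverting an exact permutation test on log2 CPM, ran from 0.839-fold to 1.15-fold. Clcn2 shares 85 exon bases with Fam131a and 82 with Polr2h, both on the opposite strand, so reads of the shared bases cannot be told apart here either, and Clcn2 held 145 to 382 reads per library.

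Of the other 10 CLC channel and exchanger genes, 7 were tested, none was called by edgeR or DESeq2, and none had an unadjusted p under 0.05 (median 0.00). Clcn3, an endosomal exchanger, was at 223 ± 17.7 and 231 ± 16.6 CPM, Clcn4 at 203 ± 15.4 and 210.0 ± 11.9 CPM, and Clcn6 at 87.2 ± 3.87 and 86.1 ± 7.03 CPM.
Among the volume-regulated anion channel subunits, tweety genes and other partners of MLC1, 13 of 14 were tested, 2 were higher and 1 was lower (median -0.05). Ttyh2 rose from 5.73 ± 0.623 to 12.9 ± 1.36 CPM (log2 fold change 1.17, edgeR adjusted p = 7.2e-08). Ttyh3 rose from 279 ± 16.6 to 395 ± 34.9 CPM (0.50, edgeR adjusted p = 2.4e-05), close to the fold threshold, and DESeq2 called 1 of the list higher. Ttyh1 was at 166 ± 12.4 and 228 ± 4.33 CPM (0.46, edgeR adjusted p = 8.0e-06), under the fold threshold but with no overlap of the groups. Cav1, the caveolar coat protein, fell from 10.9 ± 1.64 to 6.11 ± 0.444 CPM (-0.84, edgeR adjusted p = 1.0e-05). Lrrc8b, a subunit of the volume-regulated channel, was at 141 ± 7.83 and 133 ± 12.2 CPM.

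Dag1 encodes dystroglycan, which spans the membrane, and Dtna encodes alpha-dystrobrevin, which joins dystrophin and syntrophins to it on the inside. Dag1 (chromosome 9, 108204634 to 108263958, minus strand) ranged over 162.1 to 195.6 CPM in control (median 175.2) and 179.0 to 220.6 CPM in *Neuid* KD libraries (median 213.6). In all, 5 of 6 *Neuid* KD libraries were above every control library, and the sixth, replicate 1, lay within the control range. Its log2 fold change of 0.24 (SE 0.0599, edgeR adjusted p = 0.0183) passed on p and was under the fold threshold. That p was above 0.05 without control replicate 2 (0.135) or 6 (0.104) and without *Neuid* KD replicate 2 (0.151), 3 (0.117), 4 (0.116), 5 (0.0631) or 6 (0.0827).
Dtna (chromosome 18, 23415135 to 23659715, plus strand) ranged over 97.4 to 115 CPM in control (median 109) and 105.0 to 122 CPM in *Neuid* KD libraries (median 121), where again 5 of 6 libraries were above every control library. Its log2 fold change of 0.14 (SE 0.0550, edgeR adjusted p = 0.151) did not pass. The 95% interval of the difference on log2 CPM was 1.07-fold to 1.28-fold for Dag1 and 1.01-fold to 1.20-fold for Dtna, so changes of the size of Kcnj10 lie outside both intervals. These intervals are not adjusted for the number of genes tested. The share of Dtna exon bases in another gene was small (90 bases, with Gm47898 on the opposite strand).

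The rest of the dystrophin-associated complex and its ligands mostly stayed under the fold threshold. Of 23 genes listed, 22 were tested, 2 were called higher and none lower (median log2 fold change 0.18). By unadjusted p under 0.05 in edgeR 10 were higher and 1 lower, and DESeq2 called 2 higher and none lower. Sspn, which encodes sarcospan, rose from 4.67 ± 0.693 to 7.98 ± 0.690 CPM (0.77, edgeR adjusted p = 7.9e-05). Lamb2, the laminin beta-2 chain of basement membranes, rose from 19.2 ± 1.24 to 27.4 ± 2.29 CPM (0.52, edgeR adjusted p = 1.8e-05). In both, no *Neuid* KD library overlapped the control libraries. Among abundant genes of the list, Slit2 was at 314 ± 15.3 and 285 ± 31.4 CPM and Agrn, the agrin gene, at 178 ± 11.9 and 197 ± 18.1 CPM.
The enzymes that build the sugar chains of alpha-dystroglycan, through which it binds laminin, had a median log2 fold change of -0.02, in a range of -0.72 to 0.30. Of 16 genes listed 15 were tested and none was called by edgeR or DESeq2. With no fold threshold 1 was higher, the one at 0.30, and at an unadjusted p under 0.05 that gene was higher and 1 was lower. Pomgnt1, one of these enzymes, was at 49.1 ± 2.34 and 48.8 ± 1.19 CPM.

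Slc4a4 encodes NBCe1, the electrogenic sodium-bicarbonate cotransporter of astrocytes. It lies on chromosome 5 (88886818 to 89239653, plus strand), the chromosome that also carries *Neuid*. It ranged over 45.6 to 56.5 CPM in control (median 50.4) and 126.6 to 168.2 CPM in *Neuid* KD libraries (median 148.0), a log2 fold change of 1.55 (SE 0.0704, edgeR adjusted p = 9.8e-11). Its lowest *Neuid* KD library was replicate 1, and the gene ranked 44 of the 15205 genes by log2 fold change.
Of the other 33 bicarbonate transporters, proton exchangers and carbonic anhydrases listed, 30 were tested, 2 were higher and 1 was lower, with a median of -0.12. Car2, a cytosolic carbonic anhydrase of glia, rose from 13.1 ± 1.65 to 20.6 ± 2.35 CPM (0.65, edgeR adjusted p = 6.1e-05). Car8, a carbonic anhydrase-related protein without enzyme activity, rose from 2.09 ± 0.479 to 4.21 ± 1.21 CPM (1.00, edgeR adjusted p = 0.0046), although the groups overlapped. Car12, a membrane-bound enzyme, fell from 10.1 ± 1.55 to 5.36 ± 1.26 CPM (-0.92, edgeR adjusted p = 2.5e-04). The abundant bicarbonate transporter genes Slc4a10 (142 ± 6.87 and 132 ± 8.75 CPM) and Slc4a3 (128 ± 8.21 and 129 ± 9.65 CPM) were not called.
All 15 cation-chloride cotransporter and kinase genes were tested, none was called higher and 1 was called lower (median -0.06). At an unadjusted p under 0.05 in edgeR 2 were higher and 3 lower, and DESeq2 also called none higher and 1 lower. Slc12a7, the potassium-chloride cotransporter KCC4, fell from 7.83 ± 1.38 to 4.24 ± 1.08 CPM (-0.90, edgeR adjusted p = 9.8e-04). Slc12a5, the neuronal potassium-chloride cotransporter KCC2, was at 242 ± 18.4 and 233 ± 25.4 CPM, and the kinase genes Wnk1 (217 ± 14.2 and 239 ± 32.1 CPM) and Wnk2 (187 ± 12.1 and 191 ± 23.3 CPM) were not called.

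**Figure D2:**
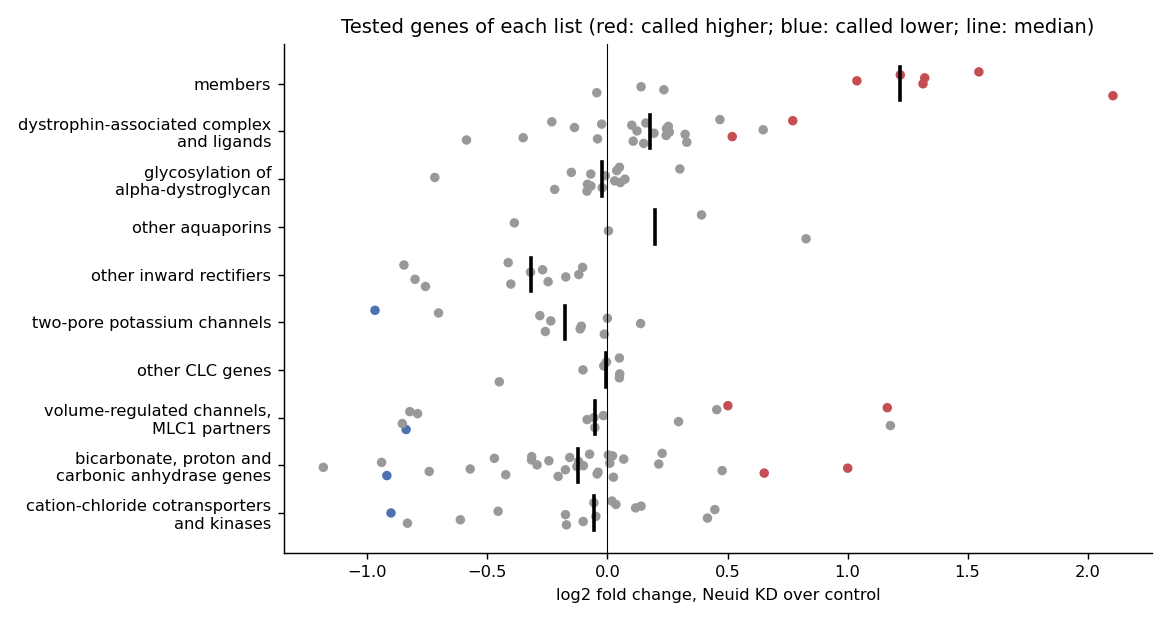
Log2 fold changes (x axis, *Neuid* KD over control) of every tested gene in the members and in 9 lists of related genes (rows), with called genes in red (higher) or blue (lower), other genes in grey and the median of each row as a line. The members have a median of 1.22, and the medians of the other rows lie between -0.32 and 0.20.

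**Figure D3:**
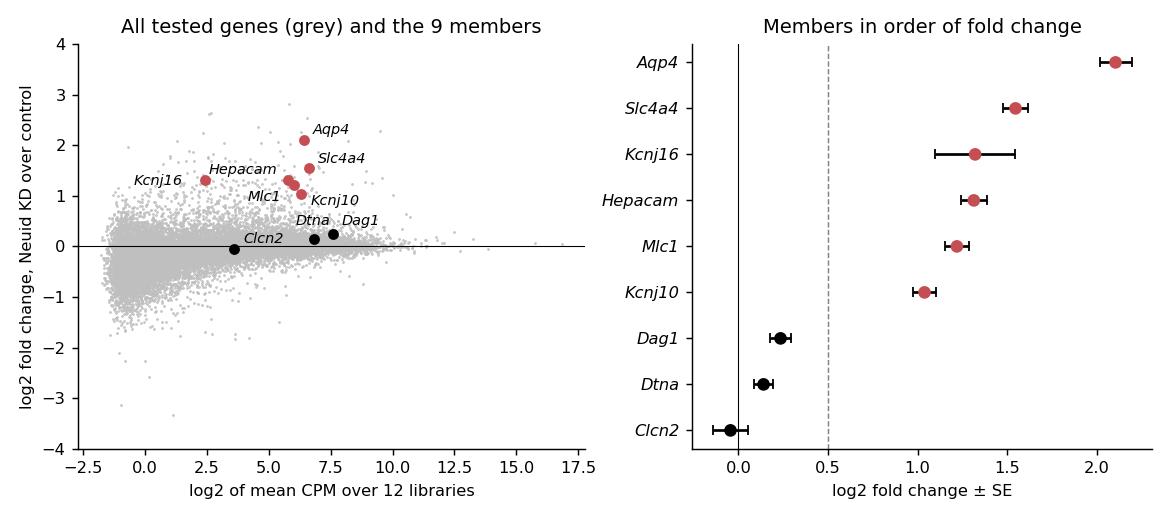
Left, log2 fold change of the 19578 tested genes (grey) and the 9 members against log2 of the mean CPM. Right, the members in order with the SE of each log2 fold change and the fold threshold of 0.5 as a dashed line. The 6 called genes (red) run from 1.04 for Kcnj10 to 2.10 for Aqp4, apart from Dag1, Dtna and Clcn2 (black), which run from -0.04 to 0.24.

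Levels of the 9 genes can be compared per length, as CPM per kb of annotated exon. In control libraries Dag1 was the highest (27.8), followed by Mlc1 (14.1), Kcnj10 (9.64), Hepacam (9.33), Dtna (6.34), Aqp4 (5.23), Slc4a4 (4.66), Clcn2 (2.04) and Kcnj16 (0.788). The ranges over the 6 libraries overlapped for the neighbours Kcnj10 and Hepacam (7.84 to 10.6 and 8.13 to 10.5), Dtna and Aqp4 (5.75 to 6.80 and 4.09 to 6.20) and Aqp4 and Slc4a4 (4.21 to 5.23 for Slc4a4), and did not overlap for the others. In *Neuid* KD libraries Mlc1 (32.8) and Dag1 (32.7) stood together, with ranges of 30.6 to 34.1 and 28.2 to 34.7. Hepacam (23.2), Aqp4 (22.5) and Kcnj10 (19.8) came next, with neighbouring ranges that overlapped, then Slc4a4 (13.6), Dtna (6.99), Kcnj16 (1.99) and Clcn2 (1.98), which overlapped. Aqp4, which was below Dtna in the control order, was thus above it in the *Neuid* KD order, and the order of these genes per length depends on which annotated exons the cells use.

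Ratios within a library show whether the RNA of paired genes moved by the same factor in the whole library, and need no library size. In bulk RNA they cover all cells present, so they do not show how the genes moved within astrocytes. The difference of the mean log2 ratio was tested with a two-sided exact permutation test over the 924 arrangements of 6 against 6 libraries, adjusted over 7 ratios, where 0.002165 is the smallest p possible. For Kir5.1 and Kir4.1 the ratio of Kcnj16 to Kcnj10 reads was 0.0213 to 0.0878 in control libraries and 0.0512 to 0.107 in *Neuid* KD libraries (difference 0.36 on the log2 scale, 95% interval -0.33 to 1.14, exact p = 0.348), so neither an equal change nor a moderate difference can be told from these reads. Without control replicate 5 the difference was 0.08. In the libraries at or above 100 CPM of background it was also 0.08, and in those below 1.05.
For Mlc1 and Hepacam the ratio was 1.08 to 1.45 in control and 1.09 to 1.29 in *Neuid* KD libraries, a difference of -0.09 (95% interval -0.26 to 0.08, exact p = 0.258), which bounds an unequal change to a small one. Clcn2 parted from Hepacam: the ratio was 0.310 to 0.543 in control and 0.137 to 0.171 in *Neuid* KD libraries (-1.35, 95% interval -1.65 to -1.06, exact p = 0.002165, adjusted p = 0.0038).
Aqp4 rose more than Kcnj10, from ratios of 0.576 to 0.747 to ratios of 1.16 to 1.39 (1.07, 95% interval 0.91 to 1.20, exact p = 0.002165, adjusted p = 0.0038). It also rose against Dtna, one of the genes of its anchor, from ratios of 0.245 to 0.381 to ratios of 0.983 to 1.36 (1.97, 95% interval 1.73 to 2.21, exact p = 0.002165, adjusted p = 0.0038). Slc4a4 rose more than Kcnj10 (0.50, 95% interval 0.33 to 0.68, exact p = 0.002165, adjusted p = 0.0038), and the ratio of Dag1 to Dtna did not pass (0.09, 95% interval -0.01 to 0.19, exact p = 0.0628, adjusted p = 0.0879).

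**Figure D4:**
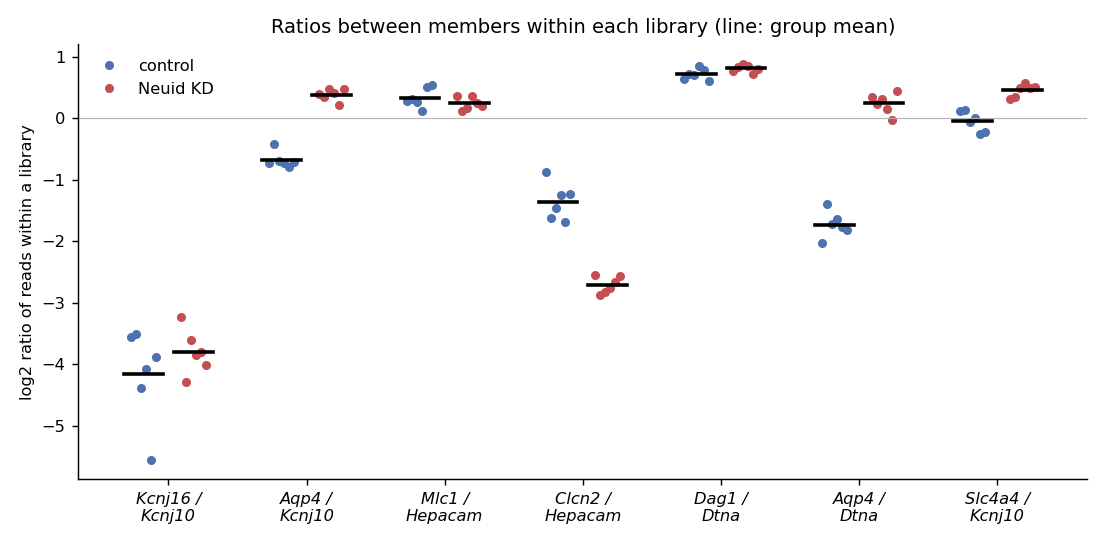
Log2 ratio of the reads of 2 members within a library (y axis) for 7 pairs (x axis), with 1 point per library, control in blue and *Neuid* KD in red, and a line at the group mean. The groups are apart for Aqp4 over Kcnj10, Clcn2 over Hepacam, Aqp4 over Dtna and Slc4a4 over Kcnj10, and overlap for the other 3 pairs.

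Astrocyte markers moved with the members. Of 12 listed, 10 were tested, all 10 were higher with no overlap of the groups, and 8 were called (median log2 fold change 1.28). No marker was at 0 reads in every library. The 2 most abundant were the glutamate transporter genes Slc1a2 (1019 to 1302 CPM in control and 1425 to 2004 CPM in *Neuid* KD libraries, 0.63) and Slc1a3 (344 ± 37.6 to 817 ± 40.3 CPM, 1.25), and the other called genes were Gfap (0.59), Fgfr3 (1.32), Aldh1l1 (1.31), Acsbg1 (2.06), Gja1 (2.27) and S100b (2.64). The geometric mean of the 10 markers was 47.9 to 54.9 CPM in control and 121 to 134 CPM in *Neuid* KD libraries, a difference of 1.27 on the log2 scale.
Set against this mean in the same library, the members lay above it, near it or below it (two-sided exact permutation tests, adjusted over the 9 tests run). These tests and intervals cover the spread between libraries and not that among the 10 markers. The markers had log2 fold changes of 0.47 to 2.64, a range that holds those of Aqp4 (2.10), Slc4a4 (1.55) and Kcnj10 (1.04). Aqp4 rose beyond it (0.83, 95% interval 0.67 to 0.98, exact p = 0.002165, adjusted p = 0.0049), as did Slc4a4 (0.27, 0.12 to 0.41, exact p = 0.0043, adjusted p = 0.0065). Hepacam (0.04, 95% interval -0.09 to 0.17), Mlc1 (-0.05, -0.14 to 0.06) and Kcnj16 (-0.01, -0.52 to 0.57) did not pass, and Kcnj16 is only loosely bounded. Kcnj10 rose by less than the mean (-0.23, 95% interval -0.34 to -0.11, exact p = 0.0043, adjusted p = 0.0065), as Dag1 (-1.03), Dtna (-1.13) and Clcn2 (-1.29) changed by less (exact p = 0.002165, adjusted p = 0.0049 each). The position of Kcnj10, Mlc1 and Hepacam depends on the markers taken: against Aldh1l1, Slc1a3 and Sox9 alone they were at 0.03, 0.21 and 0.30, and the last 2 then passed (adjusted p = 0.0028 each).

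**Figure D5:**
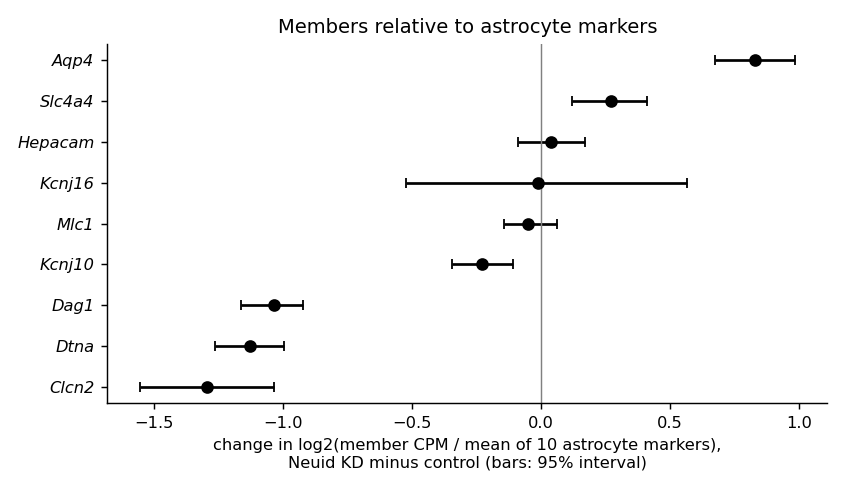
Change of each member relative to the geometric mean of 10 astrocyte markers in the same library (x axis, log2, *Neuid* KD minus control), with the 95% interval of each difference. The intervals cover the spread between libraries and not that among the markers. Aqp4 and Slc4a4 lie right of 0, Hepacam, Kcnj16 and Mlc1 have intervals that hold 0, and Kcnj10, Dag1, Dtna and Clcn2 lie left of it, although Kcnj10 was at 0.03 against Aldh1l1, Slc1a3 and Sox9 alone.

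Markers of other cells that could express these genes were checked in the same way. Of the 8 radial glia and progenitor markers 5 were higher, among them Fabp7 (257 ± 22.5 to 727 ± 49.9 CPM), Nes (0.62), Hes5 (1.69), Sox2 (0.89) and Prom1 (0.89), and Vim was lower (555 ± 29.1 to 332 ± 8.64 CPM). Their sum was 953 to 1073 CPM in control libraries and 1239 to 1420 CPM in *Neuid* KD libraries. Of the 6 markers of oligodendrocyte precursors 2 were higher, Olig1 (78.2 ± 8.49 to 216 ± 11.7 CPM) and Olig2 (10.5 ± 1.33 to 33.6 ± 1.93 CPM), and the sum of the list, most of it Olig1, was 96.3 to 115 CPM in control and 247 to 292 CPM in *Neuid* KD libraries. The other 4 were not called, with Pdgfra at 6.69 ± 1.33 and 9.17 ± 3.27 CPM, Cspg4 at 8.08 ± 1.06 and 9.12 ± 2.00 CPM, and Sox10 and Gpr17 at means of 0.630 to 1.12 CPM. Of the 3 tested markers of myelinating oligodendrocytes Mbp was lower (8.11 ± 1.12 to 5.14 ± 0.813 CPM), and the list summed to 12.4 to 19.8 CPM in control and 9.02 to 16.0 CPM in *Neuid* KD libraries. The part of these cells in the members' change was not tested.
None of the 10 neuronal markers was called by edgeR or DESeq2, with 1 higher at an unadjusted p under 0.05 (median 0.02). Map2 was at 2625 ± 179.7 and 2607 ± 254.7 CPM and Stmn2 at 991 ± 51.4 and 941 ± 52.0 CPM. No tested marker of microglia (3), endothelial cells (5), mural cells and fibroblasts (8), ependymal cells (4) or choroid plexus epithelium (5) was called by edgeR or DESeq2, and 1 ependymal marker was lower at an unadjusted p under 0.05. Ependymal and choroid plexus cells also express water channels and bicarbonate transporters, and their markers summed to 9.45 to 16.9 CPM and to 1.37 to 12.8 CPM over all libraries. The best expressed were Rsph1 (10.3 ± 0.819 and 8.42 ± 1.51 CPM) and Foxj1 (3.16 ± 0.449 and 2.56 ± 0.461 CPM), then Ttr (2.67 ± 2.98 and 4.18 ± 3.20 CPM) and Kl (1.38 ± 1.30 and 0.871 ± 0.617 CPM). Microglial markers summed to 5.74 to 11.3 CPM and were led by Aif1 (4.48 ± 0.353 and 3.61 ± 0.799 CPM) and Csf1r (3.12 ± 1.13 and 2.40 ± 0.935 CPM), and endothelial markers were led by Kdr (7.40 ± 1.63 and 7.36 ± 1.33 CPM) and Pecam1 (2.67 ± 2.16 and 1.37 ± 1.19 CPM). Mural and fibroblast markers summed to 36.4 to 62.3 CPM and were led by Dcn (21.6 ± 1.24 and 20.9 ± 1.16 CPM) and Rgs5 (8.89 ± 1.04 and 7.74 ± 1.45 CPM).

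The genes whose log2 CPM followed each member most closely over the 12 libraries were looked up among the 15205 genes that averaged 1 CPM or more. These Pearson correlations include the difference between the groups, and they are a description with no test. Those of Aqp4 included Plpp3 (r = 0.996) and Apoe (0.996), and those of Mlc1 included Plpp3 (0.997) and Fabp7 (0.996). Hepacam and Slc4a4 shared Reep3 (0.999 and 0.996) and Nacc2 (0.997 and 0.996), followed by Ednrb for Hepacam (0.995) and Zeb1 for Slc4a4 (0.996). For Kcnj10 they were Sfxn5 (0.996), Clic4 (0.995) and Plxnb1 (0.995), and for the weakly expressed Kcnj16 they were Arc (0.952), Lhfp (0.951) and Cmtm3 (0.942).
Members that were not called had other nearest genes, which follows largely from their fold changes because r includes the group difference. Dag1 was closest to Smarca4 (0.975), Astn1 (0.973) and Nfia (0.971), Dtna to Ryk (0.969), Rpe (0.957) and Sorcs2 (0.950), and Clcn2 to Htr1b (0.886), Sh3bgr (0.883) and En2 (0.878).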

How the data were processed

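RNA-seq libraries were made by the authors from total RNA with a stranded kit, and the reads were aligned with STAR to mm10 and counted on genes with featureCounts. The strand setting of the counting and the settings of the unwanted-variation step that the study names are not given in the sources used here. The values deposited are counts, whole numbers of reads per gene without normalization. Libraries took their group and number from their labels, and none was left out.

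The counts were fitted with edgeR 4.0.16 in R 4.3.3 (filterByExpr, TMM, quasi-likelihood test, group as the only term, Benjamini-Hochberg over 19578 genes). Calls needed an adjusted p under 0.05 together with a log2 fold change beyond 0.5 in either direction. DESeq2 1.42.0 was an alternative, as were other scalings and filters, RUVs factors, GC and length offsets, each library left out and the replicate number as a block. Ratios used counts plus 0.5 and exact two-sided permutation tests in Python 3.11.15 with scipy 1.17.1. Each 95% interval was found by inverting the permutation test. The scripts were tested on simulated data. Symbols and exon lengths came from GENCODE on GRCm38, and promoter windows from RefSeq. Members and lists were chosen with earlier results of these data known, and the chemosensory background measure (1778 genes) was chosen by earlier work after the counts had been seen. Named genes were all members, the called genes and the 3 most abundant of each list, the 2 most abundant and the called genes of each marker list, and the 3 genes most like each member. Genes named beyond this (Kcnj9, Sox9, Pdgfra, Cspg4, Sox10, Gpr17) were chosen after their values were seen. Some genes that the rule names are not reported here.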

Additional observations from a re-analysis of the deposited data

Results flagged for a closer look

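Of 52 groups of 6 values checked, 3 held a library apart from the others, where chance gives about 1 in 20. For Dtna, *Neuid* KD replicate 1 was at 105.0 CPM and the other *Neuid* KD libraries were at 119 to 122 CPM. In the log2 ratio of Aqp4 to Kcnj10, control replicate 2 was the highest control library at -0.42, with the others between -0.80 and -0.70. For Dag1 relative to the mean of the astrocyte markers, *Neuid* KD replicate 1 was the lowest *Neuid* KD library at a log2 value of 0.51, with the others between 0.72 and 0.78. *Neuid* KD replicate 1 was also the library with the fewest reads (11152556). The cause of these values was not tested.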

How the results depend on the processing

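The 6 called members passed the threshold under all 25 alternatives of the fit, with log2 fold changes of 2.02 to 2.15 for Aqp4, 0.88 to 1.12 for Kcnj10, 1.16 to 1.80 for Kcnj16, 1.11 to 1.32 for Mlc1, 1.25 to 1.40 for Hepacam and 1.47 to 1.57 for Slc4a4. Besides the libraries named beside its value, Dag1 lost its adjusted p with no filter on low counts (0.429), within the libraries at or above 100 CPM of background (0.337) and with GC and length offsets (0.969, or 0.707 with the replicate block). Its log2 fold changes there were 0.24, 0.23, 0.27 and 0.27, beside 0.24 in the reported fit, and its SE was 0.0983, 0.0998, 0.169 and 0.142 beside 0.0599. Dtna passed on p with a filter of 1 CPM in 6 libraries (0.0468), 1 RUVs factor (0.0438) or the background as a covariate (0.0405). Clcn2 was at 0.013 without control replicate 1, in a leave-one-out range of -0.13 to 0.013.

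Over all tested genes, 477 were called higher and 155 lower. These numbers were 1235 and 473 with no fold threshold and 797 and 328 at a threshold of 0.3. Genes called lower numbered 283 with 1 RUVs factor, 260 with 2 factors, 300 with the background as a covariate, 93 with GC and length offsets, 90 with those offsets and the replicate block, and 260 in DESeq2. With each library left out in turn, 414 to 475 were called higher and 123 to 269 lower, the last without *Neuid* KD replicate 1. The cause was not tested. The median log2 fold change of all tested genes was -0.04 with RLE factors and -0.09 with upper-quartile factors.

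Same-numbered libraries correlated in their deviations at 0.774, -0.454, 0.751, -0.638, -0.552 and 0.004, and not every library correlated best with its own number. Same-numbered libraries could also differ in chemosensory background, so whether the numbers pair cultures cannot be told from these correlations. With the replicate block 474 genes were called higher and 167 lower, and the 6 members stayed called. With the block, the 4 called ratios kept their differences of 1.07, -1.35, 1.97 and 0.50 with an adjusted p of 0.0547, where fewer arrangements are possible. The ratio of Dag1 to Dtna passed without control replicate 4 (0.12, adjusted p = 0.0242), within a leave-one-out range of 0.070 to 0.12.

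Against the astrocyte markers, Hepacam was at -0.031 without Slc1a2, and against Aldh1l1, Slc1a3 and Sox9 only Kcnj10 was at 0.031, Kcnj16 at 0.25, Mlc1 at 0.21 and Hepacam at 0.30. Kcnj16 ran from -0.21 to 0.091 with each library left out. Kcnj16, the member with the fewest reads, had the largest SE of the 9 (0.225).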
